A study of Mus musculus with 18 samples.

Results

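The genes described here encode the nuclear subunits of the oxidative phosphorylation (OXPHOS) machinery, the 5 protein complexes of the inner mitochondrial membrane that pass electrons from nutrients to oxygen and make ATP. They were taken as every protein-coding gene of the count table whose GENCODE M21 symbol begins with Nduf followed by a, b, c, s or v and a digit (complex I), is Sdha to Sdhd (complex II), begins with Uqcr (complex III), begins with Cox4 to Cox8 and a letter (complex IV) or begins with Atp5 (complex V, the ATP synthase). The rule found 84 genes among 53090 gene IDs: 37 of complex I, 4 of complex II, 8 of complex III, 18 of complex IV and 17 of complex V. The symbol rule leaves out Ndufab1 and Cyc1, which are subunits under other names, and takes in Atp5s, which RefSeq lists as Dmac2l and which is not a subunit of the ATP synthase.

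RNA-seq libraries came from pancreatic beta cells of LIRKO and control (Ctrl) mice on a high-fat diet (HFD) or chow. LIRKO mice lack the insulin receptor in the liver, so the beta cells were not the site of the deletion; the labels do not give the allele, the Cre driver, sex, age, diet length, batch or which libraries share an animal. The groups were LIRKO mice on HFD (n = 3 libraries), LIRKO mice on chow (n = 4), Ctrl mice on HFD (n = 5) and Ctrl mice on chow (n = 6). All islets were held overnight in culture and dispersed before cells were sorted by forward scatter and their own fluorescence, so every group shares those steps. The labels number no replicates: the numbers used here follow the order in which libraries are listed within a group and only name them.

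Libraries held 19490235 to 51714775 counts. Ins1 and Ins2, which encode insulin, held 2.24% to 5.34% and 6.73% to 13.4% of the counts, and all 10 beta cell markers were detected in every group. Ctrl HFD replicates 1 and 2 stood apart from the other 16 libraries: they had the fewest counts and the highest shares of the nuclear RNA Malat1, 1.37% and 1.06%. LIRKO chow replicates 1 and 2, and likewise 3 and 4, were closer to each other (chi-square per degree of freedom 4.92 and 6.21) than any other pair within a group (25.8 or more), although both pairs differed by more than counting noise and all 4 were kept. Since no label ties libraries to separate animals, p-values measure the spread between libraries, which may be partly technical. In bulk RNA, fewer cells of a type and less RNA per cell cannot be told apart.

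Complex I takes electrons from NADH and complex II from succinate; both hand them through ubiquinone to complex III, cytochrome c and complex IV, which reduces oxygen, and the ATP synthase uses the resulting proton gradient. The mitochondrial genome encodes a few core subunits, and all the others are made from nuclear genes. In beta cells, ATP from this machinery closes the potassium channels that hold back insulin release, which is how glucose oxidation is coupled to secretion.

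Many nuclear OXPHOS promoters carry binding motifs of NRF1, a transcription factor of mitochondrial biogenesis, and of ETS and YY1 factors. Promoter sequences of 68 members were matched in RefSeq (GRCm38.p6), and 7 short motifs were searched on both strands of the 300 bases from 250 before to 50 after the start. The NRF1 core GCATGCG was in 14.7% of the 68 promoters and in 4.49% of 17491 RefSeq promoters. The ETS core CCGGAAG was in 22.1% and 11.96%, the YY1 core GATGGCG in 13.2% and 4.47%, and AAGGTCA, which ERR factors bind, in 11.8% and 4.05%. GGGCGG, bound by SP and KLF factors, was in 41.2% and 46.5%, CCAAT in 44.1% and 39.1% and the E-box CACGTG in 8.82% and 7.88%. A match is only a match of letters. An NRF1 match that reads the same on both strands is counted once per promoter, and no promoter binding was measured.

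One promoter of each complex with an NRF1 match is printed to show where these motifs sit. Each runs 5′ to 3′ on the strand of its gene, from 180 bases before the start to 30 after it, and capitals mark matches of the NRF1, ETS or YY1 letters on either strand. The regions are chr2:36049309-36049518 (minus strand, Ndufa8), chr4:140961091-140961300 (plus strand, Sdhb), chr10:80406792-80407001 (minus strand, Uqcr11), chr5:115348929-115349138 (minus strand, Cox6a1) and chr5:108434370-108434579 (minus strand, Atp5k), in GRCm38.p6.
Ndufa8: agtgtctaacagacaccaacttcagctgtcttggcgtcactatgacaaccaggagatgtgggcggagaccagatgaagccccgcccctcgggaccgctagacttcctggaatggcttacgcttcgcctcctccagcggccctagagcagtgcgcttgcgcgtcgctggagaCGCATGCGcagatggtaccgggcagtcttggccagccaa
Sdhb: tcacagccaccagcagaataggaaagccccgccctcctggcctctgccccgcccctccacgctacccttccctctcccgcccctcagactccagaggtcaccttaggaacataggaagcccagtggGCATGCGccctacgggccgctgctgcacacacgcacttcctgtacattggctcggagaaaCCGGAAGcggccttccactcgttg
Uqcr11: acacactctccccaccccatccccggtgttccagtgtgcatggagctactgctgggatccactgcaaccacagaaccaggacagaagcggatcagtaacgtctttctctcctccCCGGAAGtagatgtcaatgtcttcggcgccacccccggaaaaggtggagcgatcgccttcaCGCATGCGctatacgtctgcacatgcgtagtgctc
Cox6a1: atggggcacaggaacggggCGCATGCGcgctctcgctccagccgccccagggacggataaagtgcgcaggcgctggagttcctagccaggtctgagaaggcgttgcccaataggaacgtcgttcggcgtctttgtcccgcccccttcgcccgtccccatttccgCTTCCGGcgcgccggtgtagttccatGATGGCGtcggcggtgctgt
Atp5k: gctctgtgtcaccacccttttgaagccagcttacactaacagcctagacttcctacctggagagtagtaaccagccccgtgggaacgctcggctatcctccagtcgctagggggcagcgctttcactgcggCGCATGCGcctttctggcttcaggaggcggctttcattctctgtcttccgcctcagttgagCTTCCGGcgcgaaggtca
In Ndufa8 the NRF1 match lies just before the start, in Uqcr11 it spans the start, and in Cox6a1 it lies near the far end of the printed stretch.

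Of the 84 genes, 78 passed the filter on low counts and were tested among 19284 genes: 36, 4, 7, 14 and 17 of complexes I to V. The 6 others were 4 tissue-restricted isoforms of complex IV, described with their families below, and Ndufs3 and Uqcrc1. Ndufs3 is a core subunit of complex I and Uqcrc1 a core subunit of complex III. Ndufs3 had 2 counts over all 18 libraries and Uqcrc1 had 0. What the authors' counting did with their reads was not tested, and neither gene enters any comparison.

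Per kilobase of exon, the summed level of complex I was 1731 ± 519 CPM (counts scaled to a common library size) in LIRKO HFD, 1749 ± 259 in LIRKO chow, 1872 ± 539 in Ctrl HFD and 2164 ± 465 in Ctrl chow libraries (mean ± SD). Complex II, with the fewest genes (4), had the lowest sum. It was 211 ± 40.8, 217 ± 22.6, 207 ± 17.4 and 265 ± 37.1 CPM per kb in the same 4 groups. Sums depend on the number of genes, so they do not rank the complexes by level per gene. Complex IV had 979 ± 336, 864 ± 157, 1104 ± 372 and 1220 ± 259 CPM per kb. With this scaling Ctrl chow had the highest mean for each of the 5 complexes, but the group ranges overlapped in every pair of groups for every complex. With library size alone, Ctrl HFD was above Ctrl chow for complex III (601 and 557 CPM per kb) and complex IV (1159 and 1138). Ctrl chow stayed highest for complexes I, II and V. The members together held 0.572% to 0.962% of all counts of a library.

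**Figure D1:**
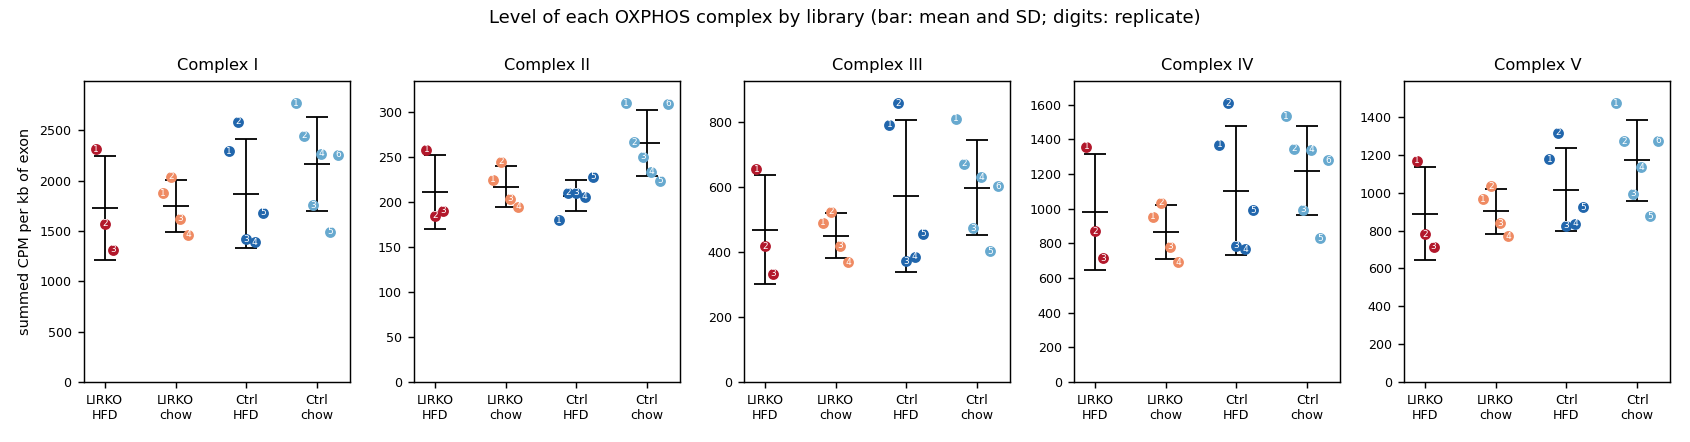
Summed CPM per kilobase of exon for the members of each complex (y axis) in each library (points, numbered by replicate), by group (x axis), with the mean and SD of each group. Ctrl HFD replicates 1 and 2 lie above the other 3 Ctrl HFD libraries for complexes I, III, IV and V but not for complex II.

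Within the complexes, levels spread widely, and the order depended on the length used. Per kilobase of the principal mRNA, the highest members over the 18 libraries were Ndufa6 (192 CPM per kb), Sdha (118), Uqcrq (355), Cox4i1 (301) and Atp5b (328). Per kilobase of all annotated exons they were Ndufa1 (163), Sdha (82.7), Uqcr10 (102), Cox8a (204) and Atp5a1 (207), so only Sdha led its complex on both scales. Sdha is the flavoprotein that oxidises succinate, and Atp5b is the catalytic beta subunit of the ATP synthase. Among the tested members, Ndufa4l2, Sdhc, Uqcrfs1 and Cox6b2 were lowest of their complexes on both scales. In complex V the lowest was Atp5s (10.7 CPM per kb of mRNA) or Atp5l (4.81 CPM per kb of exon).

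Within isoform families, mRNA levels differed widely between versions in these beta cell libraries, and protein was not measured. Cox4i1, the general isoform of the regulatory subunit IV, had 217 ± 73.9, 172 ± 27.9, 234 ± 93.7 and 254 ± 59.6 CPM in LIRKO HFD, LIRKO chow, Ctrl HFD and Ctrl chow libraries (SD). Its oxygen-sensitive lung isoform Cox4i2 had 84 counts in all. Cox8a averaged 109, 101, 138 and 143 CPM in those groups, while the muscle isoform Cox8b had 3 counts in all and the testis isoform Cox8c had 0. The testis isoforms Cox6b2 and Cox7b2 reached at most 0.559 and 0.203 CPM in any library.

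The muscle isoform Cox7a1 had 0.406 to 2.03 CPM over the libraries, against a range of 44.6 to 171 CPM for its liver-type partner Cox7a2. Cox6a2, the heart and muscle isoform of subunit VIa, was the exception among these low isoforms, with 16.6 CPM per kb of principal mRNA against 153 for the general isoform Cox6a1. Ndufa4, now placed in complex IV, had 124 CPM per kb of mRNA, against 1.40 for Ndufa4l2, its hypoxia-induced relative. Of the 3 genes that encode the same mature c subunit of the ATP synthase rotor, Atp5g3 had 232, Atp5g1 118 and Atp5g2 48.9 CPM per kb of mRNA, but Atp5g2 shares 100% and Atp5g1 65.996% of its 50-base stretches with other genes, so their counts are uncertain.

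**Figure D2:**
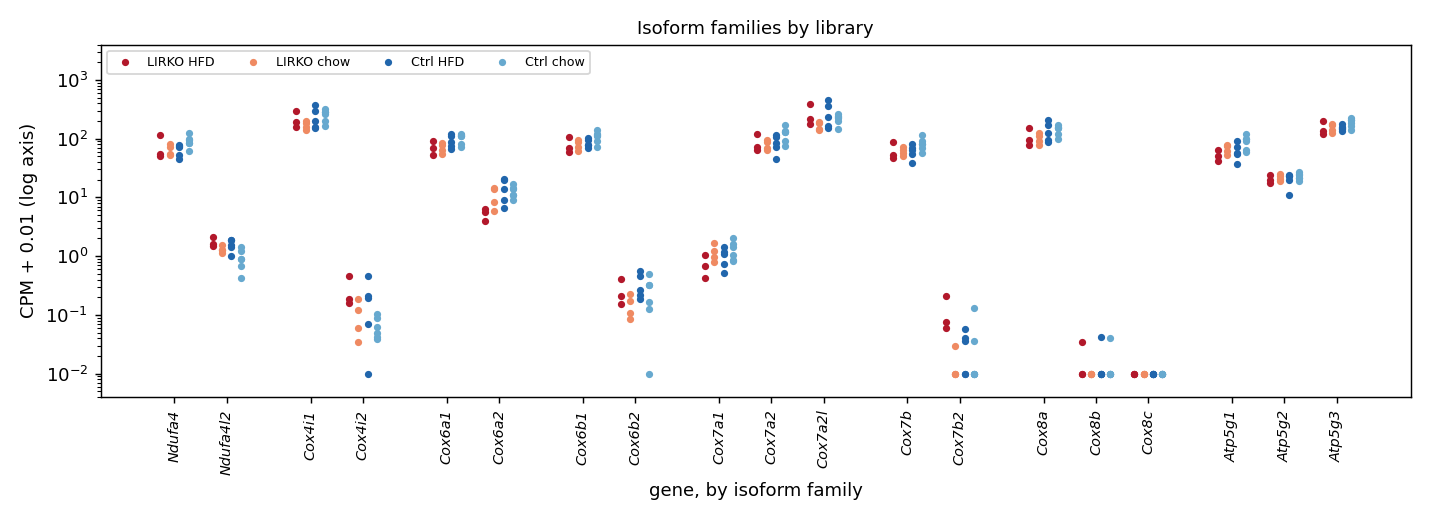
CPM plus 0.01 (y axis, log scale) of each isoform family member (x axis) in each library, coloured by group. The general isoforms Cox4i1, Cox6a1, Cox7a2 and Cox8a lie far above Cox4i2, Cox6a2, Cox7a1, Cox8b and Cox8c in all 4 groups.

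In LIRKO beta cells on chow, most OXPHOS mRNAs were slightly lower than in Ctrl beta cells on chow, and none passed the test. By edgeR's quasi-likelihood test with Benjamini-Hochberg adjustment over 19284 genes, 0 of 78 members passed an adjusted p of 0.05, against 5.15% of all genes (2.95% higher and 2.2% lower). The log2 change was below 0 for 75 of the 78 members and for 52.6% of all genes, and above 0 for 3 members and 47.4%. At an unadjusted p under 0.05, 25 members were lower and 0 higher, against 9.72% and 9.06% of all genes. The median log2 change was −0.44 over the members and −0.02 over all genes. DESeq2 called 2 members lower, Atp5s and Ndufa5, and over all 19284 genes 916 higher and 733 lower. With limma-voom and quality weights 20 members were lower, and over all genes 1799 were higher and 1719 lower. Of 10 beta cell markers 9 were also below 0 (median −0.57, 1 passing); 1 PP cell and 1 macrophage marker passed as lower, and 2 alpha cell and 1 ductal marker as higher. Their part in the OXPHOS values was not tested.

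The shift had a similar size in each complex. Median log2 changes were −0.47 for complex I, −0.36 for complex II, −0.38 for complex III, −0.49 for complex IV and −0.37 for complex V. The members of the 5 complexes were all below 0 apart from Ndufa1, Ndufc2 and Ndufa4l2 of complex I, with log2 changes of 0.33, 0.26 and 0.49. Ndufa1 and Ndufc2 belong to the membrane arm of complex I, and none of the 3 passed the test.

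Ndufa5 (chr6:24518666-24528013, minus strand), an accessory subunit of the matrix arm of complex I, had the smallest p of its complex. It had 38.3, 41.8, 26.9 and 22.0 CPM in LIRKO chow libraries, and in Ctrl chow libraries the lowest, median and highest values were 39.2, 62.6 and 79.5 CPM. One LIRKO library lay inside the Ctrl range and the other 3 below it. The fitted log2 change was −0.91 ± 0.28 (SE; edgeR quasi-likelihood, adjusted p = 0.0662), and it passed under 10 of 31 other settings.

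Sdhb, the iron-sulfur subunit of complex II, had 77.0, 80.9, 65.7 and 60.7 CPM in LIRKO chow libraries, against 69.7, 96.4 and 122 CPM (lowest, median, highest) in Ctrl chow libraries. Its log2 change was −0.43 ± 0.15 (edgeR quasi-likelihood, adjusted p = 0.125). Cox6a1, which stabilises the complex IV dimer, had 78.3, 84.1, 63.4 and 55.9 CPM in LIRKO chow libraries, against 72.8, 112 and 118 CPM in Ctrl chow libraries. For both genes 2 LIRKO libraries lay inside the Ctrl range and 2 below it. Its log2 change was −0.53 ± 0.20 (edgeR quasi-likelihood, adjusted p = 0.151). Uqcrb, the ubiquinone-binding protein of complex III, had a log2 change of −0.38 ± 0.20 (edgeR quasi-likelihood, adjusted p = 0.307).

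Atp5s had 15.7, 14.4, 13.9 and 12.5 CPM in LIRKO chow libraries, against 17.2, 18.2 and 20.02 CPM (lowest, median, highest) in Ctrl chow libraries, with no overlap. This was a log2 change of −0.37 ± 0.11 (edgeR quasi-likelihood, adjusted p = 0.0668). Atp5l, subunit g of the membrane part of the ATP synthase, was the other member whose groups did not overlap, with 23.5 to 26.5 CPM against 26.9 to 38.4 CPM; 5.21% of all genes had every LIRKO chow library below every Ctrl chow library and 6.46% the reverse. Atp5l shares 84.8% of its 50-base stretches with other genes.

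**Figure D3:**
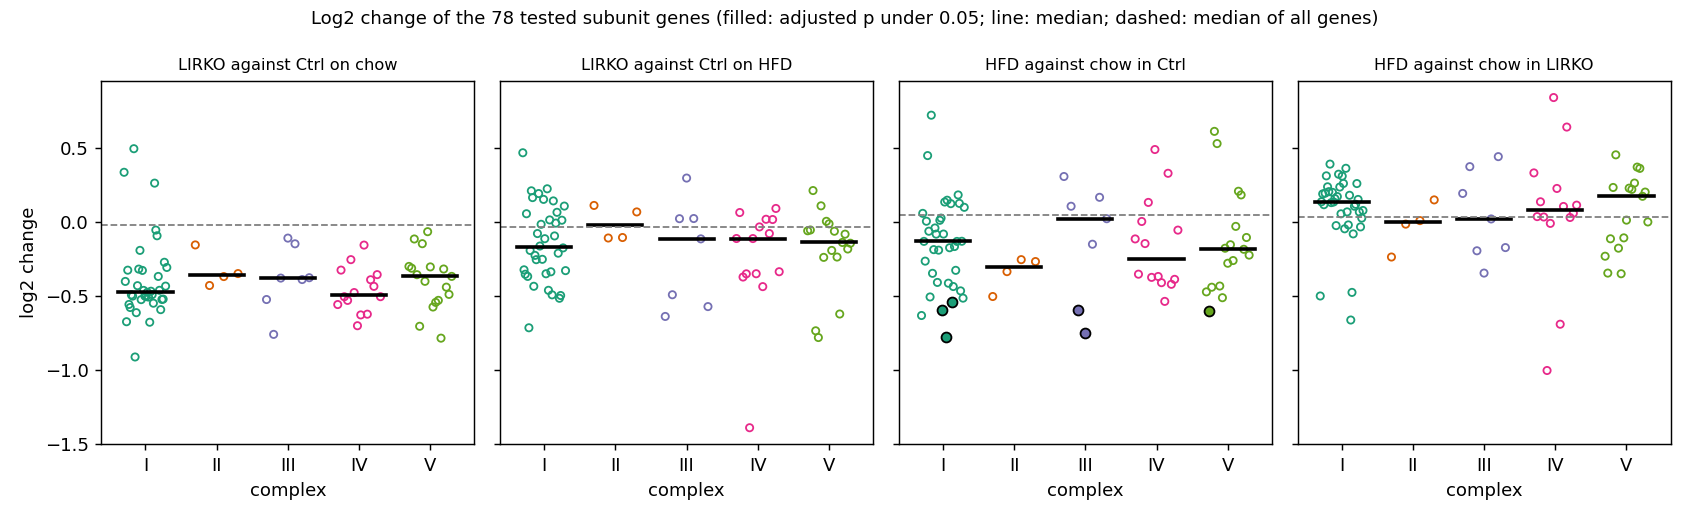
Log2 change (y axis) of the 78 tested members, by complex (x axis), in the 4 pairwise comparisons; filled points passed an adjusted p of 0.05, thick lines are medians of a complex and the dashed line is the median of all genes. The 6 filled points are all in the comparison of HFD with chow in Ctrl mice, and the LIRKO comparison on chow has nearly every point below 0.

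The median change of other short mRNAs was also below 0 in LIRKO chow libraries, with few calls in either direction. The principal mRNA of a tested member had a median length of 738.5 bases, against 2840 bases for other tested protein-coding genes. The median log2 change was −0.50 for the 53 members under 1000 bases and −0.33 for the 25 longer ones. It was −0.26 for the 962 other protein-coding genes under 1000 bases and −0.02 for the 13522 longer ones. Of the 962 short genes 270 were above 0, and 19 passed as higher and 15 as lower. Cytosolic ribosomal proteins (81 tested) had a median of −0.47 and mitochondrial ribosomal proteins (77 tested) a median of −0.35, with 0 and 1 past the threshold. Among the members, the log2 change had a Spearman correlation of 0.39 with mRNA length and −0.31 with GC content, over 78 genes of the same libraries. With offsets for GC content and length in each library, an alternative chosen after the data were seen, the median over the members was −0.35, and 3 members passed, beside 767 genes higher and 641 lower of 19231.

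The library medians of the members moved by as much within groups as between them. As a log2 deviation from each gene's median over the 18 libraries, the median of the 78 members was 0.36, −0.17 and −0.42 in LIRKO HFD libraries and −0.01, 0.07, −0.28 and −0.40 in LIRKO chow libraries. It was 0.40, 0.56, −0.29, −0.35 and −0.01 in Ctrl HFD libraries, and ran over −0.24, 0.35 and 0.64 (lowest, median, highest) in Ctrl chow libraries. Cytosolic ribosomal protein mRNAs had medians of the same sign in 18 of 18 libraries.

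**Figure D4:**
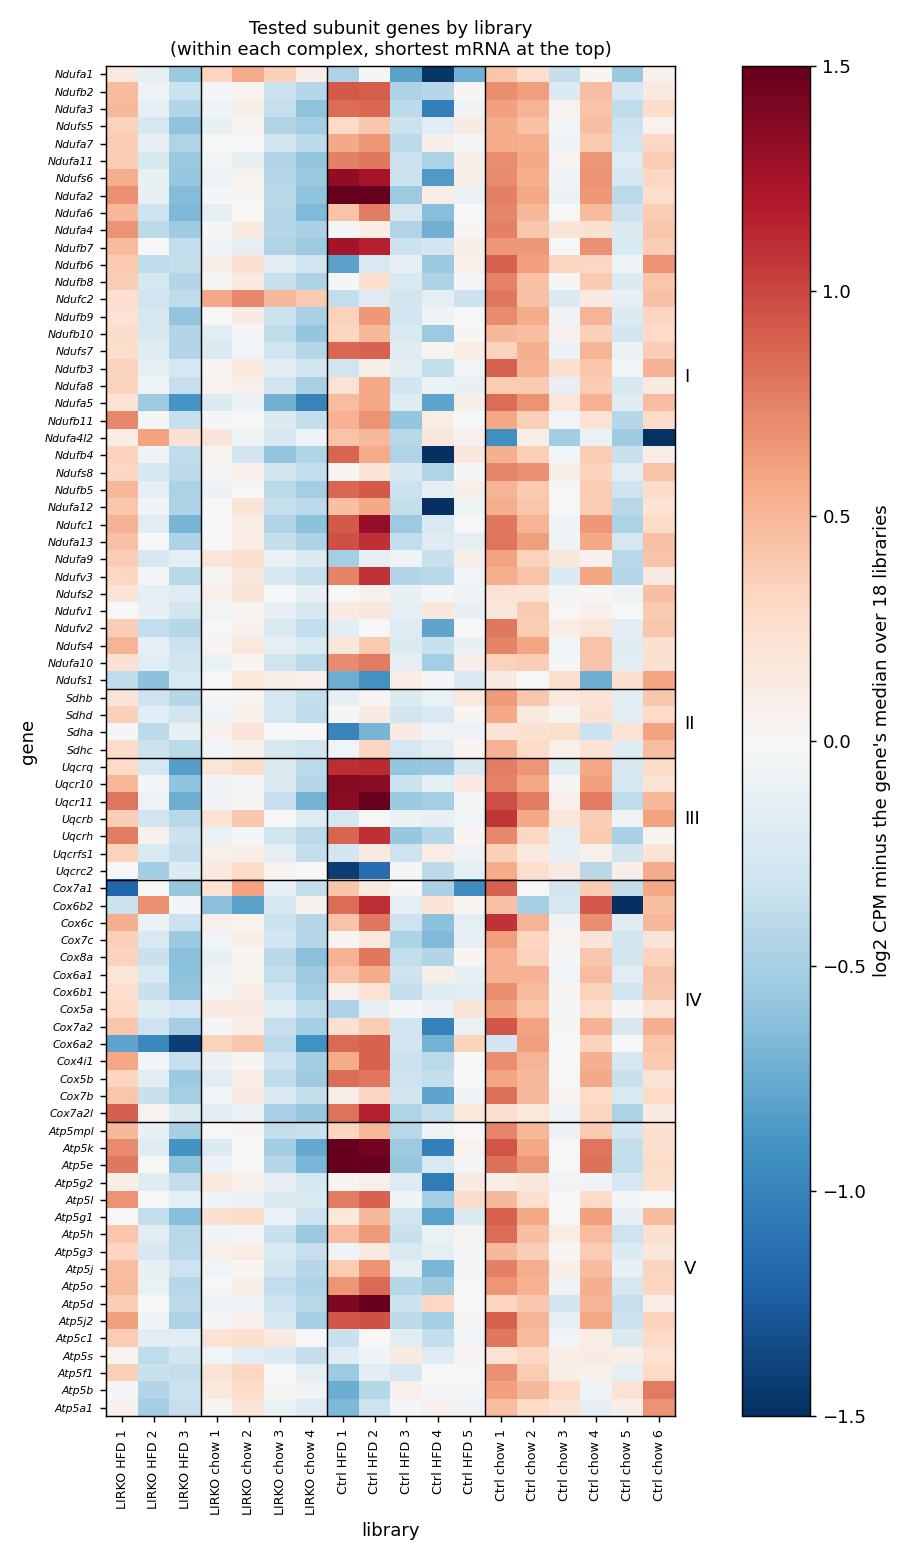
Log2 CPM of each tested member (rows, grouped by complex, shortest mRNA at the top of each) minus its median over the 18 libraries (columns, grouped by genotype and diet), from blue (lower) to red (higher). Many whole columns share a colour, and in Ctrl HFD replicates 1 and 2 the short members are mostly red. Members of 1000 bases or more are mixed there, with median deviations of −0.04 and 0.13, and Uqcrc2, Sdha and Atp5b are among the blue ones.

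On HFD, no OXPHOS mRNA passed the test between LIRKO and Ctrl beta cells. By edgeR's quasi-likelihood test 0 of 78 members passed, against 0.508% of all genes (0.316% higher and 0.192% lower). At an unadjusted p under 0.05, 1 member was lower and 0 higher, against 4.26% and 3.56% of all genes, and DESeq2 called 1 and limma-voom 0. Over all genes DESeq2 called 177 higher and 139 lower, and limma-voom 540 and 384. The median log2 change was −0.11 (all genes −0.04), with 54 members below 0 and 24 above, against 54.6% and 45.4% of all genes. It was 0.16 without Ctrl HFD replicates 1 and 2, 0.01 without LIRKO HFD replicate 3 and −0.35 without LIRKO HFD replicate 1. The smallest p of complexes I, II, III and V belonged to Ndufs7, Sdhb, Uqcr10 and Atp5d, with log2 changes of −0.50, −0.11, −0.64 and −0.74.

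Cox6a2 (chr7:128205435-128206387, minus strand) was the member with the smallest p on HFD and the one called by DESeq2. It had 6.24, 5.54 and 4.03 CPM in LIRKO HFD libraries, against 19.8, 20.3, 8.999, 6.61 and 13.7 CPM in Ctrl HFD libraries. All 3 LIRKO HFD libraries lay below all 5 Ctrl HFD libraries, and no other member was without overlap; 2.5% of all genes had this pattern and 2.51% the reverse. The log2 change was −1.39 ± 0.37 (edgeR quasi-likelihood, adjusted p = 0.132). It was below 0 under all 31 other settings and passed under 3 of them.

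Between the diets in LIRKO mice, Cox6a2 had 13.9, 14.4, 8.25 and 5.76 CPM on chow, and its log2 change for HFD against chow was −1.01 ± 0.38 (edgeR quasi-likelihood, adjusted p = 0.183). One HFD library lay inside the chow range. In Ctrl mice on chow, values ran over 8.89, 12.3 and 16.9 CPM (lowest, median, highest), and the log2 change for HFD was 0.13 ± 0.29. The difference between the diet effects in LIRKO and Ctrl mice was −1.14 ± 0.47 on the log2 scale (edgeR quasi-likelihood, adjusted p = 0.853; unadjusted p = 0.0266).

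In Ctrl beta cells on HFD, 6 subunit mRNAs fell relative to chow: Ndufb3, Ndufb6 and Ndufc2 of complex I, Uqcrb and Uqcrc2 of complex III and Atp5b of complex V. None rose, so 6 of 78 members (edgeR's quasi-likelihood test, adjusted p under 0.05) stood against 9.93% of all genes, 5.57% higher and 4.35% lower. At an unadjusted p under 0.05, 22 members were lower and 2 higher, against 15.1% and 19.1% of all genes. No member had groups without overlap, against 2.13% of all genes lower and 1.43% higher. The 6 calls were lost without Ctrl HFD replicates 1 and 2, where 34 of all 18941 genes remaining in the test passed in place of 1914 of 19284. The 6 calls were also lost when any 1 of Ctrl HFD 1, Ctrl HFD 2, Ctrl chow 1, Ctrl chow 2 or Ctrl chow 6 was left out. Over all genes, 45 higher and 30 lower then remained without Ctrl HFD 1, and 58 and 39 without Ctrl HFD 2 or Ctrl chow 1. Those counts were 85 and 74 without Ctrl chow 2, and 40 and 29 without Ctrl chow 6. The 6 calls were lost by limma-voom too, which called 44 genes higher and 29 lower of 19284. Without any 1 of the 4 LIRKO chow libraries or LIRKO HFD replicate 2 or 3, 2 or 3 members passed, beside 361 to 563 genes lower and 468 to 780 higher. The median log2 change of the members was −0.17 (all genes 0.04), with 54 below 0 and 24 above, against 46.9% and 53.1% of all genes, and it was −0.45 without Ctrl HFD replicates 1 and 2.

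In GRCm38, Ndufb3 lies at chr1:58586384-58595964 (plus strand), Ndufb6 at chr4:40270591-40279421 (minus) and Ndufc2 at chr7:97400003-97407802 (plus). Uqcrb lies at chr13:66900617-66905378 (minus), Uqcrc2 at chr7:120635176-120659524 (plus) and Atp5b at chr10:128083273-128090391 (plus).

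Ndufb6, an accessory subunit of the membrane arm, changed most. It had 25.3, 37.7, 40.4, 29.8 and 46.6 CPM in Ctrl HFD libraries, against 41.6, 61.4 and 81.1 CPM (lowest, median, highest) in Ctrl chow libraries. The fitted log2 change was −0.78 ± 0.20 (edgeR quasi-likelihood, adjusted p = 0.0338). Ndufb6 shares 34.1% of its 50-base stretches with another gene, Smim27. Ndufb3, of the same arm, had 54.8, 71.9, 60.4, 52.1 and 65.4 CPM in Ctrl HFD libraries, against 65.5, 93.5 and 125 CPM in Ctrl chow libraries. For both genes only the lowest chow library lay inside the HFD range. The log2 change of Ndufb3 was −0.60 ± 0.16 (edgeR quasi-likelihood, adjusted p = 0.0357).

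Ndufc2 had 81.3, 91.8, 87.1, 95.7 and 84.0 CPM in Ctrl HFD libraries, against 90.8, 129 and 183 CPM (lowest, median, highest) in Ctrl chow libraries. This was a log2 change of −0.54 ± 0.17 (edgeR quasi-likelihood, adjusted p = 0.0470). The lowest chow library lay inside the HFD range and the other 5 chow libraries above it. In LIRKO mice Ndufc2 had 125, 85.5 and 80.6 CPM on HFD, against 156, 173, 148 and 138 CPM on chow, with no overlap, a pattern of 18.3% of all genes. That log2 change was −0.66 ± 0.21 (edgeR quasi-likelihood, adjusted p = 0.112).

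Uqcrb had 57.1, 68.9, 64.6, 62.9 and 66.8 CPM in Ctrl HFD libraries, against 65.8, 95.1 and 144 CPM (lowest, median, highest) in Ctrl chow libraries. Its log2 change was −0.60 ± 0.18 (edgeR quasi-likelihood, adjusted p = 0.0484), and 43.4% of its 50-base stretches are shared with other genes. Uqcrc2, a core protein that lies with Uqcrc1 on the matrix side of complex III, had 53.5, 64.6, 141, 109 and 129 CPM in Ctrl HFD libraries, against 107, 164 and 210 CPM in Ctrl chow libraries. The 2 lowest values are those of Ctrl HFD replicates 1 and 2, and the other 3 lie inside the chow range. The log2 change was −0.75 ± 0.23 (edgeR quasi-likelihood, adjusted p = 0.0467). Uqcrc2 shares 24.8% of its 50-base stretches with another gene, Pdzd9.

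Atp5b had 352, 440, 625.01, 586 and 581 CPM in Ctrl HFD libraries, against 571, 773 and 1011 CPM (lowest, median, highest) in Ctrl chow libraries. Here too the 2 lowest values are those of replicates 1 and 2. The fitted log2 change was −0.61 ± 0.17 (edgeR quasi-likelihood, adjusted p = 0.0406). Sdha, with the smallest p of complex II, had a log2 change of −0.51 ± 0.19 (edgeR quasi-likelihood, adjusted p = 0.0743). Cox5a, with that of complex IV, had one of −0.35 ± 0.15 (edgeR quasi-likelihood, adjusted p = 0.110).

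**Figure D5:**
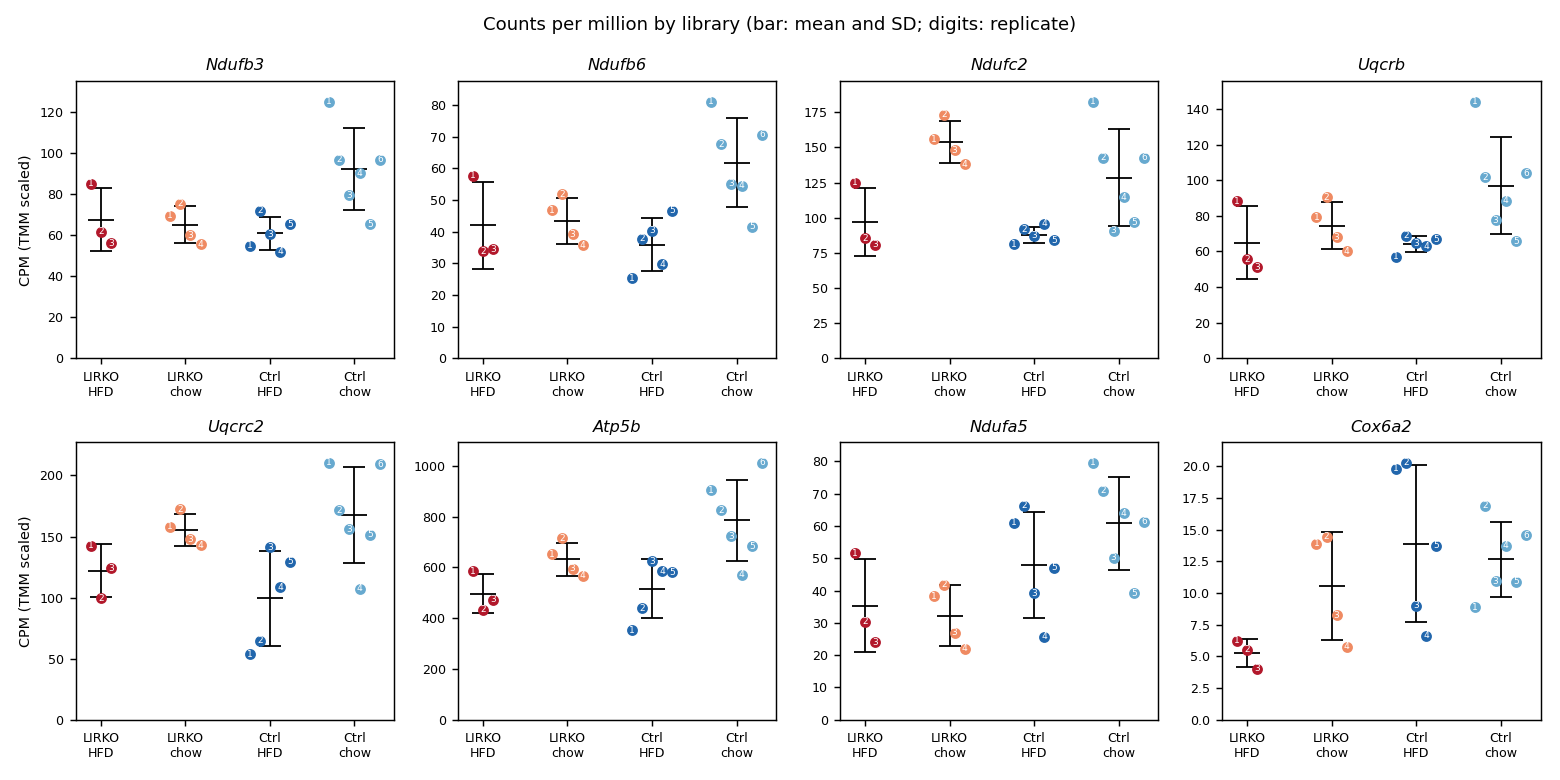
CPM (y axis) of the 6 members that fell on HFD in Ctrl mice, and of Ndufa5 and Cox6a2, in each library (points, numbered by replicate), by group (x axis), with mean and SD. For Uqcrc2 and Atp5b the lowest Ctrl HFD points are replicates 1 and 2; for Cox6a2 all 3 LIRKO HFD points lie below the Ctrl HFD points.

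In Ctrl HFD replicates 1 and 2, GC-rich and short members were high relative to the others. Across the 78 members, their deviations had Spearman correlations of 0.51 and 0.49 with GC content and −0.42 and −0.40 with mRNA length, over genes of 1 library each. Ctrl chow replicate 4 had like values, 0.45 with GC content and −0.48 with length. Atp5e, the small epsilon subunit of the ATP synthase, had 280 and 303 CPM in them, against 54.1, 68.9 and 78.7 CPM in the other 3 Ctrl HFD libraries. Atp5d, the delta subunit, had 223 and 236 CPM, against 67.2, 105 and 83.5 CPM. With offsets for GC content and length, 18 members were lower on HFD in Ctrl mice, beside 1650 genes lower and 1577 higher of 19231. With replicates 1 and 2 left out as well 0 members passed, beside 15 genes lower and 28 higher of 18889.

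Ndufa4l2 was the member with the highest log2 change on HFD in Ctrl mice. It had 1.84, 1.91, 0.977, 1.51 and 1.40 CPM in Ctrl HFD libraries, against 0.412, 0.898 and 1.44 CPM (lowest, median, highest) in Ctrl chow libraries. This was a log2 change of 0.72 ± 0.28 (edgeR quasi-likelihood, adjusted p = 0.0845), and it passed under 2 of 31 other settings.

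In LIRKO beta cells, HFD against chow gave 0 of 78 members past the threshold by edgeR's quasi-likelihood test, against 2.03% of all genes (1.06% higher and 0.975% lower). At an unadjusted p under 0.05, 2 were lower and 0 higher, against 7.72% and 8.78% of all genes; DESeq2 called 1 and limma-voom 7, all lower. Over all 19284 genes DESeq2 called 551 higher and 508 lower, and limma-voom 3101 and 3003, a larger share than among the members. The median log2 change was 0.12 (all genes 0.03), with 55 members above 0 and 23 below, against 52.9% and 47.1% of all genes, and it was −0.07 by limma-voom and −0.15 without LIRKO HFD replicate 1. Ndufc2, Ndufs1, Sdha and Uqcrc2 had every HFD library below every chow library, a pattern of 18.3% of all genes; 16.1% had the reverse. Ndufs1, the largest iron-sulfur subunit of complex I, had 73.8, 63.0 and 82.6 CPM on HFD, against 96.0, 108, 103 and 101 CPM on chow, and a log2 change of −0.48 ± 0.25 (edgeR quasi-likelihood, adjusted p = 0.356). Sdha, Uqcrc2 and Atp5b had log2 changes of −0.24, −0.35 and −0.35, none past the threshold.

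For the diet effect in LIRKO minus that in Ctrl mice, 0 of 78 members passed edgeR's quasi-likelihood test, against 0.00519% of all genes, and 0 passed with DESeq2 or limma-voom. At an unadjusted p under 0.05, 2 were higher (Ndufb3, 0.65 ± 0.25, and Ndufb6, 0.73 ± 0.31) and 1 was lower (Cox6a2), against 2.41% and 3.11% of all genes. The median was 0.27, with 67 of 78 above 0 and 11 below, against 47.5% and 52.5% of all genes, and it was 0.01 without LIRKO HFD replicate 1. The 4 pairwise comparisons share groups, so their medians are not independent.

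Of the 13 mRNAs encoded by mitochondrial DNA 7 were tested, and 0 passed in any comparison by edgeR's quasi-likelihood test or DESeq2. At an unadjusted p under 0.05, 2 were lower on HFD in Ctrl mice, against 15.1% of all genes. In LIRKO mice limma-voom called 1 lower on HFD, beside 3003 genes lower and 3101 higher of 19284. Their median log2 change was −0.27 for LIRKO against Ctrl on chow, −0.00 on HFD, −0.56 for HFD against chow in Ctrl and −0.28 in LIRKO mice. Ctrl HFD replicate 4 had a median deviation of −1.75 for these mRNAs, and 0.857% of its counts came from the mitochondrial chromosome, against 1.70% to 4.05% in the other 17 libraries. In that library some short nuclear members were low too, with 26.2 CPM of Ndufa1 against 41.3 to 70.6 CPM in the other 4 Ctrl HFD libraries.

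Genes that work beside the complexes passed the test in a few cases. On chow, Gpd2, the glycerol-3-phosphate dehydrogenase that feeds electrons to ubiquinone, fell in LIRKO beta cells, with 59.3, 60.8, 49.98 and 50.3 CPM in LIRKO chow libraries against 68.3 to 123 CPM in Ctrl chow libraries (log2 change −0.75 ± 0.18, edgeR quasi-likelihood, adjusted p = 0.0189). Pcx, pyruvate carboxylase, which refills the citric acid cycle in beta cells, fell too (−0.68 ± 0.16, edgeR quasi-likelihood, adjusted p = 0.0166). So did Ndufaf6, an assembly factor of complex I (−0.56 ± 0.15, edgeR quasi-likelihood, adjusted p = 0.0379). Both Gpd2 and Pcx passed under 28 of 31 other settings and Ndufaf6 under 19, but none of the 3 passed with the closely similar LIRKO chow libraries summed in pairs, at adjusted p of 0.229, 0.215 and 0.306.

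By list, on chow 1 of 10 subunits and electron carriers outside the symbol rule fell in LIRKO beta cells, as did 1 of 46 assembly factors and 1 of 19 citric acid cycle enzymes. Over all genes 2.2% passed as lower and 2.95% as higher. Of 15 genes of mitochondrial carriers, pores and uncoupling, 0 passed edgeR's quasi-likelihood test (2 at an unadjusted p under 0.05, 0 by DESeq2 and 3 by limma-voom). Of 18 regulators of mitochondrial biogenesis, Esrrb rose with 0.0245 to 0.357 CPM in LIRKO chow libraries against 0 to 0.0515 CPM in Ctrl chow libraries, near the floor of detection, and lost the call with the LIRKO chow pairs summed (edgeR quasi-likelihood, adjusted p = 0.085). Of 10 hypoxia-responsive metabolic genes 0 passed by edgeR's quasi-likelihood test (5 at an unadjusted p under 0.05, 2 by DESeq2 and 6 by limma-voom, all higher). Over all 19284 genes, 9.06% were higher and 9.72% lower at an unadjusted p under 0.05. DESeq2 called 916 of all genes higher and 733 lower, and limma-voom 1799 and 1719. All 10 hypoxia-responsive genes had log2 changes above 0, against 47.4% of all genes, and their median was 0.72. Egln3, a prolyl hydroxylase that limits HIF, had a log2 change of 2.11 and Pdk1, which restrains pyruvate oxidation, 1.34 (edgeR quasi-likelihood, adjusted p = 0.0545 and 0.0584). Without Ctrl HFD replicates 1 and 2 in the fit, 3 of the 10 passed, beside 1064 genes higher and 701 lower of 18941.

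On HFD in LIRKO beta cells, Fh1, the fumarase of the citric acid cycle, fell. Of 19 citric acid cycle enzymes it was the 1 that passed, against 0.975% of all genes lower and 1.06% higher. Fh1 had 84.9, 72.1 and 77.1 CPM on HFD, against 207, 215, 200 and 191 CPM on chow, with no overlap. Without overlap, 18.3% of all genes were lower and 16.1% higher. The log2 change of Fh1 was −1.38 ± 0.21 (edgeR quasi-likelihood, adjusted p = 0.00517), and it passed under 30 of 31 other settings, the exception being the summed pairs (adjusted p = 0.0865). In Ctrl mice Fh1 had 55.0, 61.9, 87.7, 84.2 and 85.7 CPM on HFD, against 107 to 205 CPM on chow. Again there was no overlap, as for 2.13% of all genes lower and 1.43% higher. The log2 change of Fh1 in Ctrl mice was −0.93 ± 0.17 (edgeR quasi-likelihood, adjusted p = 0.0150; 0.0930 without Ctrl HFD replicates 1 and 2).

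Nrf1, which encodes the factor whose motif core is marked in the promoters above, fell on HFD in LIRKO beta cells. It had 44.2, 56.7 and 54.2 CPM on HFD, against 79.9, 77.5, 83.4 and 82.5 CPM on chow (log2 change −0.64 ± 0.14, edgeR quasi-likelihood, adjusted p = 0.0234). Vdac1, the main pore of the outer mitochondrial membrane, had 274, 278 and 278 CPM on HFD, against 505, 516, 418 and 397 CPM on chow (−0.73 ± 0.15, edgeR quasi-likelihood, adjusted p = 0.0211). With the LIRKO chow pairs summed the adjusted p by the same test were 0.207 and 0.201. Nrf1 was the 1 call among 18 regulators of mitochondrial biogenesis, and Vdac1 the 1 among 15 genes of carriers, pores and uncoupling. Of all genes 0.975% passed as lower and 1.06% as higher.

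On HFD in Ctrl beta cells more of these genes fell, against 5.57% of all genes higher and 4.35% lower. All of these calls were lost without Ctrl HFD replicates 1 and 2, where the log2 changes were −0.69 for Fh1, −0.61 for Cycs, −0.48 for Gpd2, −0.54 for Mpc1, −0.45 for Slc25a5 and 1.46 for Epas1. Of 19 citric acid cycle enzymes 5 fell (Fh1, Idh3a, Suclg2, Sucla2 and Pcx), at log2 changes between −0.93 and −0.50. Of 15 genes of carriers, pores and uncoupling 6 fell, among them Mpc1, a pyruvate carrier subunit (−0.83 ± 0.19), and Slc25a5, an ATP/ADP carrier (−0.68 ± 0.18). Cycs, the cytochrome c that shuttles electrons between complexes III and IV, fell (−0.74 ± 0.18, edgeR quasi-likelihood, adjusted p = 0.0338), as did Gpd2 and Etfa, the other 2 of 10 carriers and subunits outside the rule. The assembly factors Cox16 and Tmem70 fell among 46. Epas1, which encodes HIF-2 alpha and is high in endothelial cells, rose (1.495 ± 0.45, edgeR quasi-likelihood, adjusted p = 0.0463).

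The summed markers of endothelial cells, of stellate cells and fibroblasts and of macrophages had higher medians on HFD in both genotypes, with ranges that overlapped in Ctrl mice and not in LIRKO mice. By edgeR's quasi-likelihood test none of the endothelial, stellate or fibroblast markers passed between diets, though all were above 0 in both genotypes. Of 8 macrophage markers 2 passed as higher, in LIRKO mice, against 1.06% of all genes. At an unadjusted p under 0.05, 7 of 7 endothelial markers were higher on HFD in Ctrl and 6 of 7 in LIRKO mice. Of 7 stellate cell and fibroblast markers 5 and 3 were higher, and of 8 macrophage markers 3 and 6. None of these markers was lower, against 15.1% and 7.72% of all genes, and 19.1% and 8.78% of all genes were higher. The summed level of 7 endothelial markers was 211 to 293 CPM in LIRKO HFD and 10.8 to 143 CPM in LIRKO chow libraries, and 150 to 299 CPM in Ctrl HFD and 30.8 to 203 CPM in Ctrl chow libraries. That of 7 stellate cell and fibroblast markers was 32.4 to 40.7, 1.32 to 23.5, 13.2 to 75.2 and 2.28 to 16.8 CPM in the same order, and that of 8 macrophage markers 200 to 233, 99.7 to 161, 135 to 266 and 119 to 196 CPM. The 10 beta cell markers summed to 110042 to 209111 CPM in LIRKO HFD, 171059 to 221372 in LIRKO chow, 99830 to 204100 in Ctrl HFD and 143063 to 234136 in Ctrl chow libraries. Between diets 1 of 10 passed as lower in LIRKO and 3 in Ctrl mice, against 0.975% and 4.35% of all genes. Of 6 alpha cell markers, 6 were above 0 on HFD in Ctrl mice (median log2 change 0.84, 1 passing) and 4 in LIRKO mice (0.95, 0 passing). The 2 PP cell markers had medians of −0.00 in Ctrl and 1.52 in LIRKO mice, and the 2 tested delta cell markers −0.91 and −0.09, with 0 passing. Their part in the OXPHOS values was not tested.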

How the data were processed

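The values are raw read counts per gene that the authors deposited for 18 libraries. Per the submitters' processing notes, STAR, featureCounts and GRCm38 were used; no source used here gives versions or the strand setting of the counting. Per the labels' protocols the kit marks strand. The members and the other gene lists were chosen with earlier results of these data known.

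Genes were filtered with filterByExpr on the 4 groups, scaled by TMM and tested in edgeR 4.0.16 (R 4.3.3) by the quasi-likelihood test, two-sided, with 1 coefficient per group over all 18 libraries and Benjamini-Hochberg adjustment over 19284 genes at 0.05. CPM used TMM-scaled library sizes, and levels between genes were divided by exon or principal mRNA length. DESeq2 1.42.0 and limma 3.58.1 (voom) were alternatives, with other scalings, filters and sets of libraries. Named are members past the threshold, the smallest p in each complex and comparison, isoform families, core subunits and the highest and lowest levels; single members outside this were chosen after their values were seen. Symbol matches that are not protein-coding (12) were left out.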

Additional observations from a re-analysis of the deposited data

How the results depend on the processing

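The members' median log2 change for LIRKO against Ctrl on chow was below 0 under all 31 alternatives (−0.53 to −0.33). Counts of members past the threshold moved more. For LIRKO against Ctrl on chow (0), they were 2 with library size alone, 1 with a filter of 1 CPM, 2 with DESeq2, 20 with voom, 5 with only the groups compared, 3 without Ctrl HFD 1 and 2, 3 with GC and length offsets, 5 with both, and 0 to 2 with single libraries left out. In the same order, up to the setting with both, 477, 413, 733, 1719, 724, 701, 641 and 1171 of all genes were lower. Those higher were 519, 551, 916, 1799, 929, 1064, 767 and 1185. With single libraries left out, 122 to 480 of all genes were lower and 290 to 646 higher. For LIRKO against Ctrl on HFD (0), they were 1 with DESeq2 and 1 with the offsets, and 0 to 1 with single libraries left out. Over all genes 139 were lower and 177 higher with DESeq2, and 60 and 84 with the offsets. With single libraries left out, 4 to 57 were lower and 6 to 105 higher. For HFD in Ctrl mice (6), they were 3 with upper quartile scaling, 2 with library size alone, 2 with no filter, 4 with a filter of 1 CPM, 10 with DESeq2, 18 with the offsets and 0 to 9 with single libraries left out. These members were lower, except that Ndufa4l2 was higher with DESeq2, and Atp5d and Ndufa4l2 were higher without Ctrl HFD replicate 3. In the same order, up to the offsets, 485, 162, 149, 801, 1598 and 1650 of all genes were lower. Those higher were 1739, 2033, 308, 1108, 2312 and 1577. With single libraries left out, 29 to 1653 of all genes were lower and 40 to 2224 higher. The counts of members were 0 with voom, with only the groups compared, with the LIRKO chow pairs summed, without Ctrl HFD 1 and 2, and with that and the offsets. In that order, 29, 1, 49, 9 and 15 of all genes were lower and 44, 0, 65, 25 and 28 higher. For HFD in LIRKO mice (0), the counts of members were 1 with DESeq2, 7 with voom, 2 with only the groups compared, 2 with the offsets and 4 with offsets and without Ctrl HFD 1 and 2. In the same order, 508, 3003, 1925, 382 and 1002 of all genes were lower and 551, 3101, 1478, 322 and 677 higher. The offsets were chosen after the data were seen, and the cause of these differences was not tested.

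Some single genes changed sign. For LIRKO against Ctrl on HFD without Ctrl HFD 1 and 2, Uqcr10 was 0.13 and Atp5d 0.0104; with single libraries left out Sdhb ran over −0.32 to 0.0136 and Ndufa4l2 over −0.0004 to 0.27. For HFD in Ctrl mice, Cox6a2 was −0.23 with voom, −0.32 without Ctrl HFD 1 and 2, −0.073 with the offsets, −0.25 with both, and −0.041 to 0.31 with single libraries left out. Library size alone moved the median of all genes to 0.22 in Ctrl and 0.25 in LIRKO mice on HFD, where the members' medians were 0.01 and 0.32. No paired analysis was possible because the labels carry no replicate numbers; those used here only name libraries.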

Other observations

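On HFD the 10 hypoxia-responsive metabolic genes also all had log2 changes above 0 in LIRKO against Ctrl libraries, with a median of 0.84 against −0.04 over all genes. None passed edgeR's quasi-likelihood test or DESeq2, and without Ctrl HFD replicates 1 and 2 the median was 0.42. At an unadjusted p under 0.05, 2 were higher, against 3.56% of all genes. By limma-voom 3 were higher, beside 540 genes higher and 384 lower of 19284. Egln3 had a log2 change of 2.49 ± 0.68 (edgeR quasi-likelihood, adjusted p = 0.151).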
